A study of Danio rerio with 18 samples.

Results

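The 9 genes described here are the keratins krt4, krt5, krt8, krt18a.1 and krt97 and 4 genes used as markers of the enveloping layer of the zebrafish embryo: lye, icn, icn2 and epcam. They were chosen by gene symbol in the platform annotation, and all 9 of the 9 were found, on 12 of 15502 probe sets left after removal of controls (8793 genes are named in all). For 6 genes the probe set is the only one, and icn, icn2 and epcam have 2 each, of which the one with the higher mean over all arrays stands for the gene. One further probe set carries 2 symbols, icn2 and icn, and was not used. RNA of whole wild-type embryos was measured on 18 Affymetrix arrays, in 6 groups of 3. In 3 groups the embryos carried an anti-mir-34 LNA, a synthetic locked nucleic acid that binds and inhibits the microRNA mir-34, and were collected at 1, 7 or 24 hours post fertilization (hpf). In the other 3 they carried a mock LNA and were collected at the same ages. Injection was at the stage of 1 to 2 cells, and all embryos were kept at 30 °C. The replicates are labelled biological, but neither embryo numbers nor clutches were known here, so p-values measure the spread between these samples.

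The enveloping layer is the flat epithelial sheet that covers the cells of the blastula. It is the first epithelium of the embryo, it spreads over the yolk during epiboly, and it becomes the periderm, the outermost layer of the larval skin. Keratins are intermediate filament proteins that assemble from pairs of a type I (acidic) and a type II (basic) chain, and those of this layer form a network that carries tension while the sheet spreads. Zygotic transcription starts at the midblastula transition, between the 1 and 7 hpf collections, so a transcript present at 1 hpf was supplied by the mother. At 7 hpf the embryo is a gastrula in epiboly, and at 24 hpf the periderm lies over a basal epidermis.

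Levels are log2 signals as deposited, and all differences are differences of log2 signals, so that 1 unit is a doubling; levels of different genes are not set against each other. The arrays had been brought to nearly equal distributions, with medians between 3.67 and 3.68. Low levels cannot be told apart from background here, so the size of a difference from such a level is not firm, and values with 16 added to the signals are given beside some of them. In RNA of whole embryos, fewer cells of a type and less RNA per cell cannot be told apart. Replicate 2 of 7 hpf was the lowest of its 3 arrays for 7 of the 9 members in anti-mir-34 embryos and for 7 of the 9 in mock embryos. The median of the members' deviations from their group mean was -0.27 on the anti-mir-34 array and -0.84 on the mock array, which stood apart. On the mock array the median of 5 mesendoderm markers was 5.51, against 6.48 and 7.12 on mock replicates 1 and 3, and the summed signal of these 5 genes was 211.6, against 487.0 and 768.7. The median of 5 neural markers was 4.49 there, against 5.41 and 5.96, while the median of 5 maternal markers was 6.98, against 6.98 and 6.95, and their summed signal was 3533, against 2574 and 1566. The part of these array differences in the results at 7 hpf was not tested. For the members, several results at 7 hpf are given without that array as well. It was singled out in part by the members' own values, so these results are no independent check.

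The 9 genes followed 3 courses over the ages. epcam was high at 1 hpf and lower later. The 5 keratins and lye were low at 1 hpf, krt8 least so with up to 4.38, and high at 7 and 24 hpf. icn and icn2 were low at 1 hpf, still far below their 24 hpf level at 7 hpf, and high at 24 hpf. The plot of the 9 genes by age and injection shows these courses array by array.

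**Figure D1:**
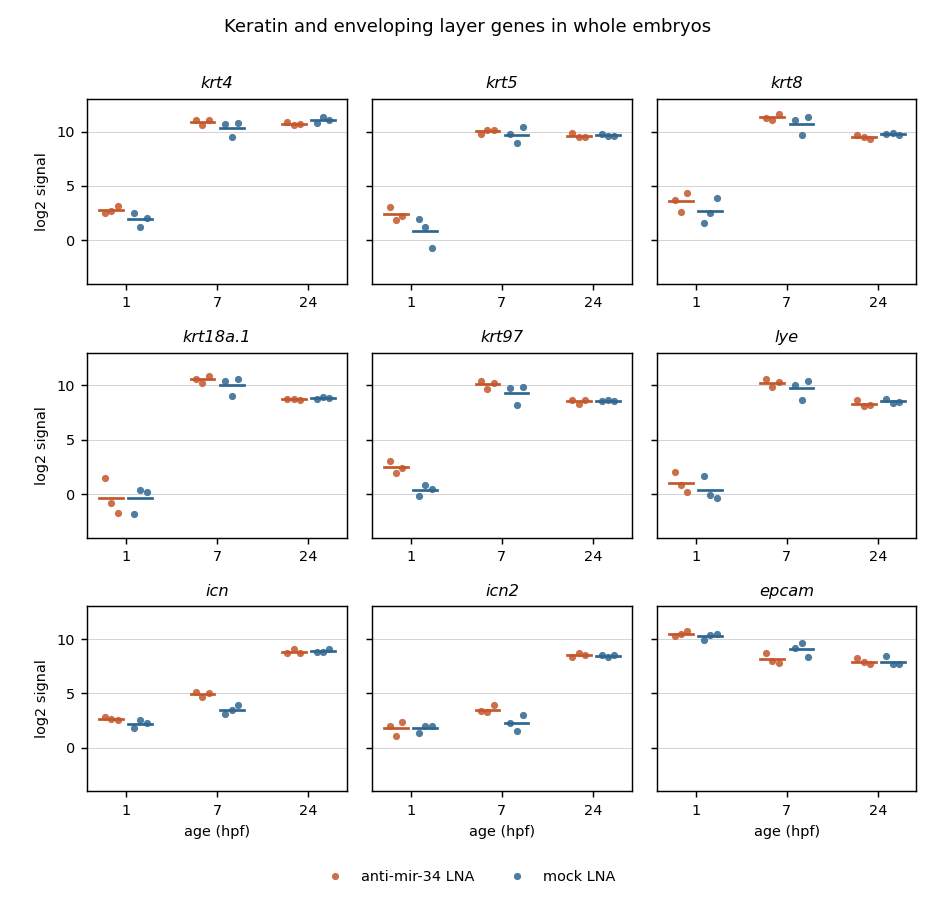
Log2 signal (vertical axis) of the 9 keratin and enveloping layer genes at 1, 7 and 24 hpf (horizontal axis) in anti-mir-34 LNA and mock LNA embryos; points are single arrays and short lines are means of 3 arrays. The first 6 genes step up between 1 and 7 hpf, icn and icn2 step up between 7 and 24 hpf, and epcam is highest at 1 hpf.

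krt4 encodes a type II keratin, and its promoter is widely used to label the outer layer of the fish embryo. Its log2 signal at 1 hpf was 2.47, 2.73 and 3.17 in anti-mir-34 embryos, against 2.47, 1.23 and 2.06 in mock embryos. At 7 hpf it was 11.03, 10.63 and 11.07 in anti-mir-34 embryos, against 10.68, 9.48 and 10.81 in mock embryos. At 24 hpf it was 10.86, 10.59 and 10.70 in anti-mir-34 embryos, against 10.82, 11.32 and 11.04 in mock embryos. Every array of 7 and 24 hpf was far above every array of 1 hpf. The arrays of 7 and 24 hpf overlapped in anti-mir-34 embryos, whereas in mock embryos the lowest array of 24 hpf was just above the highest of 7 hpf.

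krt5 encodes another type II keratin, which in mammals is a keratin of basal skin cells. At 1 hpf its log2 signal was 3.06, 1.85 and 2.27 in anti-mir-34 embryos, against 1.99, 1.21 and -0.69 in mock embryos. At 7 hpf it was 9.78, 10.15 and 10.16 in anti-mir-34 embryos, against 9.79, 8.95 and 10.41 in mock embryos, and at 24 hpf 9.83, 9.54 and 9.49, against 9.81, 9.61 and 9.55. The 24 hpf arrays of both injections lay within a range of less than 1 unit and overlapped with those of 7 hpf.

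krt8 and krt18a.1 encode the type II and type I keratins that pair with each other in simple epithelia. In the gene table of assembly GRCz12tu, krt5, krt8 and krt18a.1 are consecutive genes, with 0 genes between krt5 and krt8 and 0 between krt8 and krt18a.1. krt8 had log2 signals of 3.72, 2.63 and 4.38 in anti-mir-34 embryos of 1 hpf, against 1.62, 2.54 and 3.93 in mock embryos. At 7 hpf it stood at 11.29, 11.09 and 11.65 in anti-mir-34 embryos, against 11.10, 9.65 and 11.32 in mock embryos, and at 24 hpf at 9.67, 9.53 and 9.34, against 9.75, 9.89 and 9.68. In anti-mir-34 embryos all 3 arrays of 24 hpf were below all 3 of 7 hpf, whereas in mock embryos replicate 2 of 7 hpf was below all 3 of 24 hpf.

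krt18a.1 was at 1.46, -0.83 and -1.77 in anti-mir-34 embryos of 1 hpf, against -1.80, 0.40 and 0.19 in mock embryos, the widest scatter of any member at that age in anti-mir-34 embryos. In the gastrula it was at 10.56, 10.24 and 10.85 in anti-mir-34 embryos, against 10.37, 8.995 and 10.63 in mock embryos. At 24 hpf it was at 8.73, 8.71 and 8.68 in anti-mir-34 embryos, against 8.74, 8.91 and 8.88 in mock embryos. All 6 arrays of 24 hpf were below all 6 arrays of 7 hpf.

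krt97 is a numbered keratin gene of the fish. Its log2 signal at 1 hpf was 3.06, 1.97 and 2.43 in anti-mir-34 embryos, against -0.17, 0.80 and 0.44 in mock embryos. At 7 hpf the signal was 10.37, 9.66 and 10.21 in anti-mir-34 embryos, against 9.76, 8.17 and 9.89 in mock embryos, and at 24 hpf 8.66, 8.28 and 8.63, against 8.55, 8.69 and 8.53. The 1 hpf arrays of the injections did not overlap, and those of 7 and of 24 hpf did.

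lye encodes a protein of the Ly6 family, named for its place in the epidermis. Its log2 signal at 1 hpf was 1.99, 0.83 and 0.21 in anti-mir-34 embryos, against 1.67, -0.10 and -0.38 in mock embryos. The signal at 7 hpf was 10.59, 9.86 and 10.32 in anti-mir-34 embryos, against 10.07, 8.67 and 10.43 in mock embryos, and at 24 hpf 8.63, 8.13 and 8.15, against 8.77, 8.35 and 8.50. Its course was that of krt8, krt18a.1 and krt97, with a lower signal at 24 than at 7 hpf on all anti-mir-34 arrays and on mock replicates 1 and 3 (mock replicate 2 of 7 hpf lay within the 24 hpf range).

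icn and icn2 encode ictacalcin and ictacalcin 2, small calcium-binding proteins of the S100 family found in fish epidermis. The genes are neighbours in GRCz12tu with 0 genes between them, and both stand here on probe sets whose type mark says that some probes can match other sequences, so their signals are not fully separate. At 1 hpf icn was at 2.82, 2.64 and 2.53 in anti-mir-34 embryos, against 1.82, 2.53 and 2.32 in mock embryos. At 7 hpf it was at 5.14, 4.70 and 5.03 in anti-mir-34 embryos, against 3.09, 3.46 and 3.93 in mock embryos. All 3 anti-mir-34 arrays of 7 hpf were above all 3 mock arrays. At 24 hpf icn was at 8.70, 9.06 and 8.76 in anti-mir-34 embryos, against 8.78, 8.86 and 9.07 in mock embryos, and the arrays overlapped. The other icn probe set was dimmer and had the same course, at 3.83, 3.54 and 3.46 in anti-mir-34 embryos of 7 hpf, against 2.14, 1.70 and 3.08 in mock embryos.

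icn2 was at 1.99, 1.05 and 2.33 in anti-mir-34 embryos of 1 hpf, against 1.40, 1.99 and 2.03 in mock embryos. Its 7 hpf values were 3.38, 3.25 and 3.93 in anti-mir-34 embryos, against 2.27, 1.57 and 2.99 in mock embryos, and its 24 hpf values 8.39, 8.75 and 8.55, against 8.57, 8.32 and 8.54. Its anti-mir-34 arrays of 7 hpf were likewise all above the mock arrays. The other icn2 probe set did not show this: at 7 hpf it was at 1.16, 2.07 and 1.74 in anti-mir-34 embryos, against 1.80, 1.75 and 2.04 in mock embryos, with the arrays overlapping.

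epcam encodes the epithelial cell adhesion molecule, a membrane protein that is supplied maternally in the zebrafish and acts in the cohesion of the outer layer during epiboly. At 1 hpf its brighter probe set was at 10.25, 10.44 and 10.76 in anti-mir-34 embryos, against 9.91, 10.41 and 10.44 in mock embryos. The 7 hpf values were 8.68, 7.96 and 7.82 in anti-mir-34 embryos, against 9.22, 9.60 and 8.34 in mock embryos, and those of 24 hpf 8.23, 7.90 and 7.66, against 8.44, 7.68 and 7.69. All 1 hpf arrays were above all later ones. The name of this probe set shares its stem with those of icn and icn2, and the reading of it as epcam rests on the platform annotation. The other epcam probe set was dim on all arrays and passed the test in none of the comparisons.

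Whether the signals of these genes rose across the start of zygotic transcription was asked by setting 7 against 1 hpf within each injection. For this limma was fitted to all 15502 probe sets, with an adjusted p under 0.05 as the threshold. New transcription itself was not measured. In mock embryos 7 of the 9 genes rose, 1 fell and 1 did not pass, while over all probe sets 13.6% were called higher and 10.4% lower. In anti-mir-34 embryos 8 rose and 1 fell, against 19.4% called higher and 20.0% called lower over all probe sets. The list's median difference was 8.41 in mock embryos and 7.63 in anti-mir-34 embryos, where the medians over all probe sets were -0.19 and -0.23. With 16 added to the signals these last 2 medians were -0.05 and -0.05.

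krt18a.1 had the largest step of the 9, with 10.93 ± 0.61 (limma SE, n = 3 against 3) at 7 over 1 hpf in anti-mir-34 embryos (adjusted p = 5.54e-11) and 10.40 ± 0.61 in mock embryos (adjusted p = 1.85e-10). lye rose by 9.25 ± 0.50 in anti-mir-34 embryos and by 9.33 ± 0.50 in mock embryos. krt4 rose by 8.12 ± 0.32 in anti-mir-34 embryos and by 8.41 ± 0.32 in mock embryos, the smallest SE of these 6 genes. The sizes shrink when 16 is added to the signals: krt18a.1 then rose by 6.46 and krt4 by 6.40 in anti-mir-34 embryos, and by 5.94 and 6.03 in mock embryos. krt5, krt8 and krt97 rose by 7.63, 7.76 and 7.60 in anti-mir-34 embryos and by 8.88, 7.99 and 8.91 in mock embryos. All 12 of these steps kept their call in every alternative that was tried.

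The ictacalcins had small steps at this age. icn rose by 2.30 ± 0.28 in anti-mir-34 embryos (adjusted p = 2.1e-06) and by 1.27 ± 0.28 in mock embryos (adjusted p = 0.00206). The mock step of icn did not pass with 16 added to the signals (0.40, adjusted p = 0.0872) or with only the compared groups in the fit (adjusted p = 0.0746). icn2 rose by 1.73 ± 0.39 in anti-mir-34 embryos (adjusted p = 0.00131), whereas in mock embryos its difference was 0.47 ± 0.39 (adjusted p = 0.413). The anti-mir-34 call was lost with the mean of its probe sets (0.85, adjusted p = 0.181), and in its dimmer probe set the difference was -0.03 (adjusted p = 0.981).

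epcam was the member that fell: by 2.33 ± 0.30 in anti-mir-34 embryos (adjusted p = 4.39e-06) and by 1.2 ± 0.30 in mock embryos (adjusted p = 0.00587). The mock call was lost without mock replicate 3 of 7 hpf (-0.84, adjusted p = 0.0548). The mean of its bright and dim probe sets passed in neither injection (adjusted p = 0.228 in anti-mir-34 embryos and 0.110 in mock embryos).

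**Figure D2:**
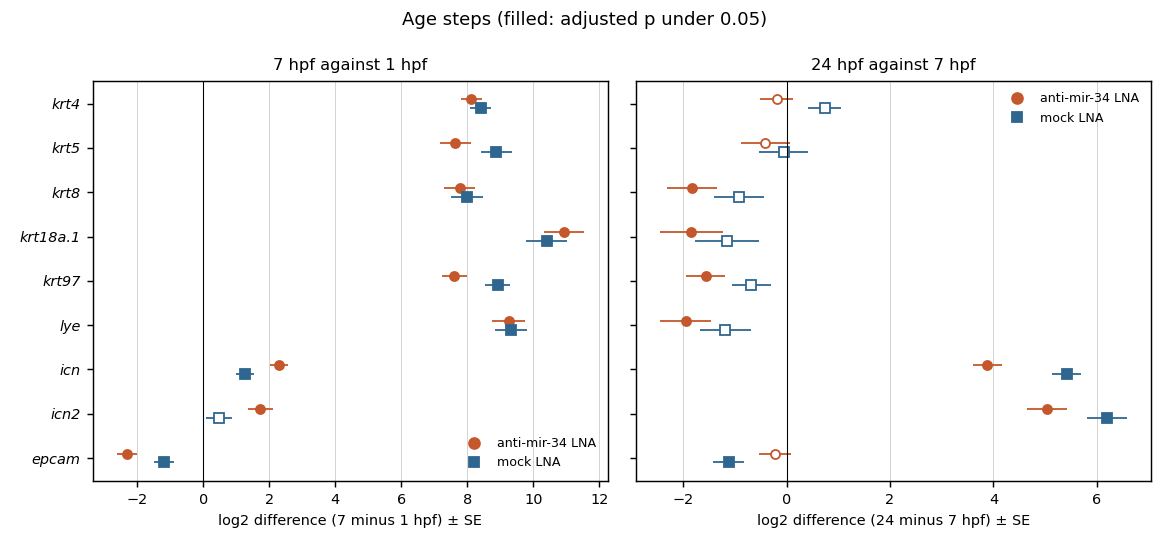
Log2 difference of 7 minus 1 hpf (left panel) and of 24 minus 7 hpf (right panel) for each gene in anti-mir-34 LNA and mock LNA embryos, with limma's SE as bars; filled symbols have an adjusted p under 0.05. The 5 keratins and lye lie between 7.60 and 10.93 on the left and between -1.95 and 0.73 on the right, and icn and icn2 have their large step on the right.

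The next step, 24 against 7 hpf, parted the early genes. In anti-mir-34 embryos 2 of the 9 genes rose, 4 fell and 3 did not pass, while over all probe sets 16.5% were called higher and 19.4% lower. In mock embryos 2 rose, 1 fell and 6 did not pass, while 19.5% of all probe sets were called higher and 23.5% lower. The 1 fall among 9 genes in mock embryos is a smaller share than that over all probe sets, and the 4 in anti-mir-34 embryos are a larger one. The 2 rises in each injection are near the share called higher. No test of the list as such was made. With 16 added to the signals 4 of the 9 fell in each injection, so the counts of falls do not part the injections. These were krt8, krt18a.1 and lye in both, with krt97 in anti-mir-34 embryos and epcam in mock embryos. Under that setting 5823 of 15502 probe sets were called in anti-mir-34 embryos, 2930 of them higher. In mock embryos 6839 were called, 3369 of them higher.

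icn2 and icn were the genes that rose in both injections. icn2 rose by 5.05 ± 0.39 in anti-mir-34 embryos (adjusted p = 5.41e-09) and by 6.20 ± 0.39 in mock embryos (adjusted p = 3.12e-10). icn rose by 3.88 ± 0.28 in anti-mir-34 embryos (adjusted p = 2.42e-09) and by 5.41 ± 0.28 in mock embryos (adjusted p = 1.75e-11). For both genes and both injections the difference in this step was larger than in the one before. In mock embryos the 7 hpf means were low, 3.49 for icn and 2.28 for icn2, and in anti-mir-34 embryos that of icn2 was 3.52. The sizes are therefore not firm.

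The 4 genes that fell in anti-mir-34 embryos were krt8, krt18a.1, krt97 and lye. lye fell by 1.95 ± 0.50 (adjusted p = 0.00403), krt8 by 1.83 ± 0.48 (adjusted p = 0.00504) and krt97 by 1.56 ± 0.38 (adjusted p = 0.00271). krt18a.1 fell by 1.84 ± 0.61 (adjusted p = 0.0229). Its call was lost without anti-mir-34 replicate 1 or 3 of 7 hpf or without any of the 3 anti-mir-34 arrays of 24 hpf, with adjusted p-values between 0.0526 and 0.0727 and differences between -1.85 and -1.69.

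In mock embryos the same 4 genes had differences of -0.92 for krt8, -1.15 for krt18a.1, -0.68 for krt97 and -1.18 for lye, none past the threshold (adjusted p = 0.132, 0.139, 0.157 and 0.0598). With 16 added to the signals krt8, krt18a.1 and lye passed, with -0.91, -1.13 and -1.15 (adjusted p = 0.0236, 0.0023 and 0.00399), and krt97 did not. Mock replicate 2 of 7 hpf lay 1.45, 1.38, 1.58 and 1.40 below the lower of the other 2 arrays for these 4 genes. Without that array krt8, krt97 and lye fell, by 1.44, 1.23 and 1.71 (adjusted p = 0.0239, 0.0056 and 0.0114), and krt18a.1 had -1.66 (adjusted p = 0.0562). Leaving out the lowest array raises the 7 hpf mean of these genes, so larger falls were built into this fit. No conclusion is drawn from its calls. The fit without mock replicate 2 called 5552 of 15501 probe sets, 2500 of them higher, against 6662 of 15502, 3026 of them higher, with all arrays. epcam fell by 1.12 ± 0.30 in mock embryos (adjusted p = 0.00517; 0.366 for the mean of its probe sets), and in anti-mir-34 embryos it had -0.22 ± 0.30 (adjusted p = 0.612). Without mock replicate 2 of 7 hpf epcam had -0.84 in mock embryos (adjusted p = 0.0423).

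krt4 and krt5 passed in neither injection. krt4 differed by -0.19 ± 0.32 in anti-mir-34 embryos (adjusted p = 0.691, 95% interval -0.86 to 0.48) and by 0.73 ± 0.32 in mock embryos (adjusted p = 0.072, 95% interval 0.06 to 1.41). Without mock replicate 3 of 7 hpf krt4 rose by 0.98 in mock embryos (adjusted p = 0.0282), and without replicate 2 it had 0.31 (adjusted p = 0.447). With 16 added to the signals it rose by 0.73 (adjusted p = 0.0261). krt5 differed by -0.41 ± 0.47 in anti-mir-34 embryos (adjusted p = 0.545) and by -0.06 ± 0.47 in mock embryos (adjusted p = 0.936, 95% interval -1.04 to 0.92).

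Set against 1 hpf, all 8 genes other than epcam were up at 24 hpf in both injections, and epcam was down. Over all probe sets 26.7% were called higher and 30.2% lower in anti-mir-34 embryos, and 26.3% and 30.0% in mock embryos. krt4 was 7.93 ± 0.32 above its 1 hpf level in anti-mir-34 embryos and 9.14 ± 0.32 in mock embryos. icn was 6.18 ± 0.28 above it in anti-mir-34 embryos and 6.68 ± 0.28 in mock embryos. epcam was 2.55 ± 0.30 below it in anti-mir-34 embryos and 2.31 ± 0.30 in mock embryos, both past the threshold. The 24 hpf arrays were also those with the least spread: the median SD over the 9 members was 0.18 in anti-mir-34 embryos and 0.14 in mock embryos, against 0.31 and 0.73 at 7 hpf and 0.61 and 0.63 at 1 hpf.

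The study's own contrast sets anti-mir-34 against mock embryos of one age. Among the 9 genes, 1 differed at 1 hpf, 0 at 7 hpf and 0 at 24 hpf. At 1 hpf 0.426% of all probe sets were called higher and 0.806% lower, at 7 hpf 0% higher and 0.0129% lower, and at 24 hpf 0.0129% higher and 0% lower. By unadjusted p under 0.05, 3 of the 9 genes passed at 1 hpf, 4 at 7 hpf and 0 at 24 hpf. The share of all probe sets by that unadjusted rule was not counted, so no reading of the list is drawn from these counts.

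At 1 hpf the gene was krt97, higher in anti-mir-34 embryos by 2.13 ± 0.38 (adjusted p = 0.00597), with all 3 anti-mir-34 arrays above all 3 mock arrays. Its mean levels were 2.48 ± 0.55 in anti-mir-34 embryos and 0.36 ± 0.49 in mock embryos (SD, n = 3 each), both at the dim end of the array. With 16 added to the signals the difference was 0.33 (adjusted p = 0.919), without the intensity trend the adjusted p was 0.0525, and with only the 1 hpf arrays in the fit it was 0.363. With only those arrays in the fit 0 of 15502 probe sets were called. krt5 differed by 1.56 ± 0.47 (adjusted p = 0.128), and without mock replicate 1 of 1 hpf, its brightest mock array, by 2.14 (adjusted p = 0.0347). The fit without that array called 89 of 15502 probe sets, against 191 with all arrays. krt4, krt97 and icn were the 3 genes whose arrays did not overlap at 1 hpf, with the anti-mir-34 arrays above; over all probe sets 6.43% lay above in this way and 6.30% below. The mean was higher in anti-mir-34 embryos for 8 of the 9 genes, icn2 being the exception at -0.02. Over all probe sets the median difference was 0.04.

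At 7 hpf icn came nearest to the threshold, with 1.47 ± 0.28 (adjusted p = 0.0803, 95% interval 0.88 to 2.05). icn passed with the dimmer 50% of all probe sets left out (adjusted p = 0.0478) and without anti-mir-34 replicate 2 (adjusted p = 0.0293). Over all probe sets 6 of 7751 and 77 of 15502 were called in these fits, against 2 of 15502 with all arrays and probe sets. icn2 differed by 1.24 ± 0.39 (adjusted p = 0.207) and epcam by -0.90 ± 0.30 (adjusted p = 0.244). Without mock replicate 3 all 3 of these genes passed, icn with 1.69 (adjusted p = 0.00661), icn2 with 1.60 (adjusted p = 0.037) and epcam with -1.26 (adjusted p = 0.028). In that fit 403 of 15502 probe sets were called, 114 of them higher. Whether the gain in calls was particular to these genes was not tested. Without mock replicate 2, the array that stood apart, none of the 3 passed, and 0 of 15501 probe sets were called. There icn had 1.45 (adjusted p = 0.353), icn2 0.89 (adjusted p = 0.968) and epcam -0.62 (adjusted p = 0.9998). With 16 added to the signals none of the 9 genes passed. The other 6 genes had differences between 0.31 for krt5 and 0.81 for krt97, with adjusted p-values between 0.389 and 0.811. Without mock replicate 2 these 6 lay between -0.07 for krt5 and 0.26 for krt97, with lye at 0.01 and krt18a.1 at 0.05. icn and icn2 were the 2 genes whose anti-mir-34 arrays all lay above the mock arrays, as did those of 7.79% of all probe sets, while 7.76% lay below. The anti-mir-34 mean was the higher one for 8 of 9 genes, and the median difference over all probe sets was 0.03. Of the lists described below, it was also higher for 7 of 10 other keratins, 22 of 24 regulators and 33 of 43 junction and envelope genes. Without mock replicate 2 krt5 was no longer among the genes with the higher anti-mir-34 mean.

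In anti-mir-34 embryos of 7 hpf the median summed signal of mesendoderm and neural markers was higher, and that of maternal markers lower. In each of these lists the arrays of the injections overlapped, and no marker passed the threshold. The lowest adjusted p from limma was 0.498 for mesendoderm and 0.432 for neural markers. The part of these lists in the differences above was not tested. The summed signal of the 5 mesendoderm markers was 795.8, 591.2 and 918.8 in anti-mir-34 embryos, against 487.0, 211.6 and 768.7 in mock embryos. The summed signal of the 5 neural markers was 681.4, 522.6 and 790.9 in anti-mir-34 embryos, against 574.2, 187.8 and 630.1 in mock embryos. In both lists mock replicate 2 was the lowest of the 6 arrays. The summed signal of the 5 maternal markers was 1013, 2518 and 940 in anti-mir-34 embryos, against 2574, 3533 and 1566 in mock embryos, where replicate 2 was the highest. Their median log2 signal was 6.73, 7.06 and 6.53 in anti-mir-34 embryos, against 6.98, 6.98 and 6.95 in mock embryos. By that measure anti-mir-34 replicate 2 was the highest, so the order of the arrays depends on the measure. All 5 maternal markers had a lower mean in anti-mir-34 embryos (median difference -0.79, none past the threshold, lowest adjusted p = 0.601), as did the maternal member epcam at -0.90.

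At 24 hpf no gene came near the threshold. The largest difference was that of krt4, at -0.35 ± 0.32 (95% interval -1.02 to 0.33), followed by krt8 at -0.26 ± 0.48 (-1.26 to 0.74) and lye at -0.24 ± 0.50 (-1.27 to 0.80). The widest interval was that of krt18a.1, at -1.42 to 1.14 around -0.14. The narrowest was that of icn, at -0.65 to 0.52. All 9 adjusted p-values were 0.999. The arrays of krt8 and krt18a.1 did not overlap, with the anti-mir-34 arrays below, as were those of 4.32% of all probe sets, while 4.85% lay above. The anti-mir-34 mean was higher for 1 of the 9 genes, icn2 at 0.09 ± 0.39. Over all probe sets the median difference was 0.01.

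**Figure D3:**
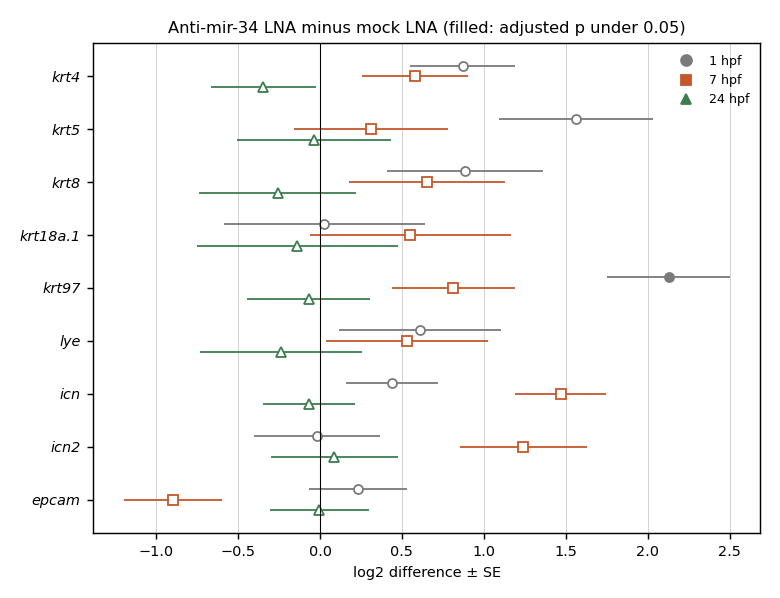
Log2 difference of anti-mir-34 minus mock LNA for each gene (horizontal axis) at 1, 7 and 24 hpf, with limma's SE as bars; the filled symbol, krt97 at 1 hpf, has an adjusted p under 0.05. The differences at 24 hpf lie between -0.35 and 0.09, closer to 0 than most of those at 1 and 7 hpf.

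Whether the injection changed the course over the ages was tested as the injection-by-age interaction. None of the 9 genes passed limma's F-test (0.0968% of all probe sets did), and 4 had an unadjusted p under 0.05: krt97, icn, epcam and krt4. Their adjusted p-values from limma were 0.176, 0.216, 0.422 and 0.423. The difference between the injections in either step passed for 0 of the 9 genes as well (0.271% of all probe sets passed for the step to 7 hpf and 0% for that to 24 hpf), with 4 and 3 of them at an unadjusted p under 0.05. Shares of all probe sets at an unadjusted p under 0.05 were not counted for the interaction or the steps. For icn the step up to 7 hpf was larger in anti-mir-34 than in mock embryos by 1.03 ± 0.40 (adjusted p = 0.296) and the step to 24 hpf was smaller, with a difference of -1.54 ± 0.40 (adjusted p = 0.364). For krt97 the step up to 7 hpf differed by -1.31 ± 0.53 (adjusted p = 0.319), and by 0.46 with 16 added to the signals, so that not even its sign is settled.

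The other 10 keratin genes on the array were set beside the 5 members that are keratins. At 7 over 1 hpf 3 of the 10 rose and none fell in anti-mir-34 embryos (19.4% and 20.0% over all probe sets), and 2 rose and 2 fell in mock embryos (13.6% and 10.4%). With 16 added to the signals 2 rose in each injection, and 1 fell in mock embryos. At 24 over 7 hpf 6 rose and 1 fell in each injection, where 16.5% of all probe sets rose in anti-mir-34 embryos and 19.5% in mock embryos. The 6 genes were krt1-19d, krt1-19e, krt15, krt18b, krt91 and krt94 in both injections. None of the 10 differed between the injections at any age. On the probe sets standing for genes, the lowest adjusted p-values were 0.445 at 1 hpf, 0.349 at 7 hpf and 0.999 at 24 hpf. The other probe set of krt1-19e had -2.71 ± 0.80 at 7 hpf (adjusted p = 0.180).

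krt17, a type I keratin gene, had the course of the early members. It was at 8.26, 7.09 and 8.52 in anti-mir-34 embryos of 7 hpf, against 7.70, 6.26 and 8.08 in mock embryos, and at 7.72, 7.30 and 6.90 in anti-mir-34 embryos of 24 hpf, against 7.92, 6.53 and 6.99 in mock embryos. It rose by 7.91 ± 0.53 at 7 over 1 hpf in anti-mir-34 embryos (adjusted p = 6.94e-10) and by 7.63 ± 0.53 in mock embryos (adjusted p = 1.95e-09). krt99 came on for the 7 hpf collection and then declined: it rose by 6.82 ± 0.73 in anti-mir-34 embryos and by 4.77 ± 0.73 in mock embryos, and then fell by 4.57 ± 0.73 and 3.76 ± 0.73.

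krt1-19e, a type I keratin gene used as a marker of basal skin cells, was at 7.17, 8.48 and 7.78 in anti-mir-34 embryos of 24 hpf, against 7.16, 7.68 and 7.92 in mock embryos. At 24 over 7 hpf it rose by 5.91 ± 0.78 in anti-mir-34 embryos and by 5.64 ± 0.78 in mock embryos, after a 7 hpf difference from 1 hpf of 0.37 and -0.46 that did not pass. Its other probe set rose by 6.28 ± 0.80 and 3.17 ± 0.80 in that step, after differences of 0.43 and 1.69 that did not pass. krt18b, a type I keratin gene, rose by 5.03 ± 0.82 in anti-mir-34 embryos and by 5.91 ± 0.82 in mock embryos in that step. krt91, krt94, krt15 and krt1-19d rose by 2.76, 4.66, 4.64 and 3.83 in anti-mir-34 embryos and by 3.88, 4.92, 3.33 and 4.68 in mock embryos. krt91 was also the third gene that rose at 7 over 1 hpf in anti-mir-34 embryos, by 2.46 ± 0.62 (adjusted p = 0.00338). In mock embryos krt91 had 0.55 ± 0.62 (adjusted p = 0.558). Its other probe set had 2.99 ± 0.79 in anti-mir-34 embryos (adjusted p = 0.00487) and 1.99 ± 0.79 in mock embryos (adjusted p = 0.0741). krt93 and krt1-19d were the 2 that fell at 7 over 1 hpf in mock embryos, by 2.30 and 2.27, at dim levels where the size has no firm meaning. The other krt1-19d probe set had -1.06 ± 0.74 there and did not pass (adjusted p = 0.331). krt95 passed in neither step of either injection.

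**Figure D4:**
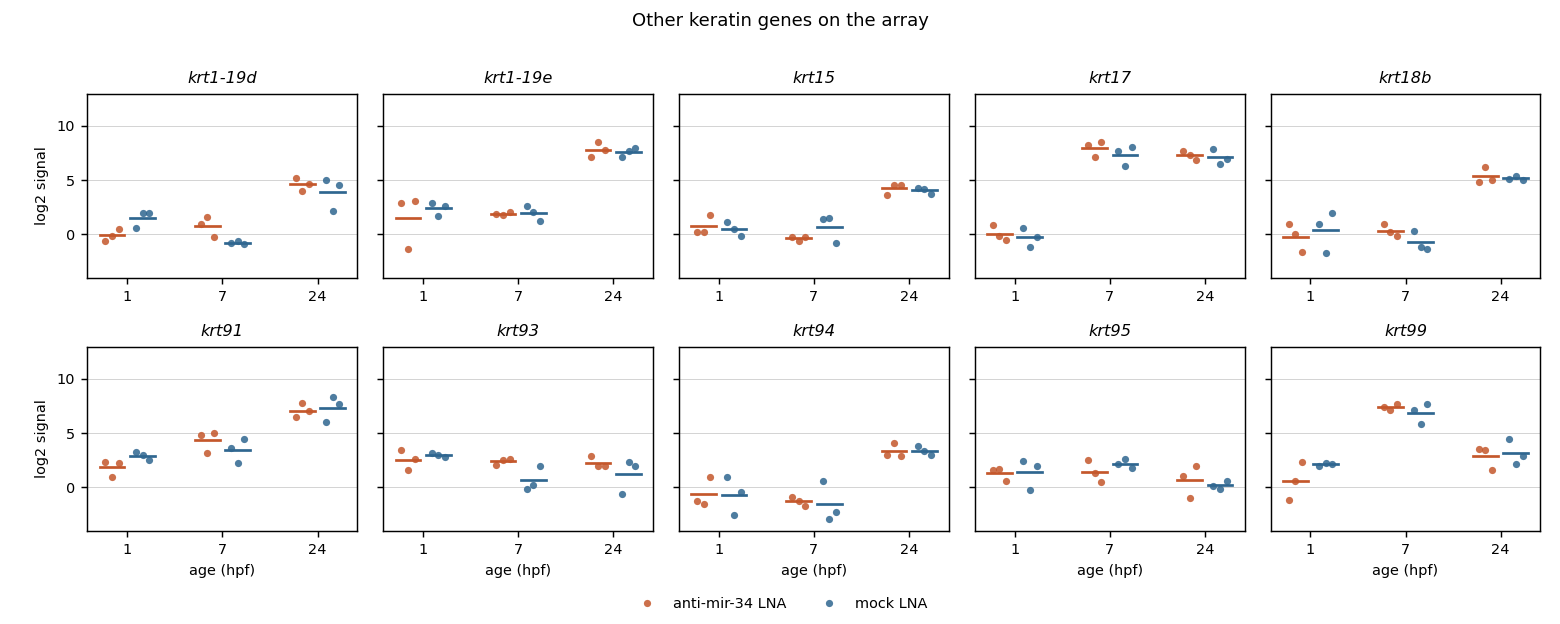
Log2 signal (vertical axis) of the 10 other keratin genes at 1, 7 and 24 hpf (horizontal axis) in anti-mir-34 LNA and mock LNA embryos; points are single arrays and short lines are means of 3 arrays. krt17 and krt99 are high at 7 hpf, and krt1-19d, krt1-19e, krt15, krt18b, krt91 and krt94 step up between 7 and 24 hpf.

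Keratins belong to the intermediate filament family, and 8 genes of its other branches were measured. vim, the vimentin gene of mesenchymal and glial cells, was up by 6.06 ± 0.63 at 24 over 7 hpf in anti-mir-34 embryos and by 5.82 ± 0.63 in mock embryos. desma, the desmin gene of muscle, rose by 6.27 ± 0.39 in anti-mir-34 embryos and by 7.64 ± 0.39 in mock embryos. gfap, of glia, rose by 6.36 ± 0.85 in anti-mir-34 embryos and by 6.79 ± 0.85 in mock embryos, and inab, of neurons, by 3.32 ± 0.58 and 3.98 ± 0.58. Of the nuclear lamin genes, lmnl3 fell by 3.09 ± 0.48 at 24 over 7 hpf in anti-mir-34 embryos and by 2.39 ± 0.48 in mock embryos, lmnb2 fell by 1.35 ± 0.46 in anti-mir-34 embryos and had -0.68 ± 0.46 in mock embryos, and lmna and lmnb1 passed in neither. The genes vim, desma, gfap and inab did not rise at 7 over 1 hpf in mock embryos, where krt4, krt5, krt8, krt18a.1 and krt97 made their step. In that step desma fell by 1.07 ± 0.39 (adjusted p = 0.0499) and lmnl3 by 2.02 ± 0.48 (adjusted p = 0.00385). In anti-mir-34 embryos vim, desma, gfap and inab had differences between -0.41 and 0.25 at 7 over 1 hpf, none past the threshold.

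Transcription factors of the outer layer and epidermis were described from a list of 33, of which 24 were measured. At 7 over 1 hpf 16 of the 24 rose and 1 fell in anti-mir-34 embryos, where 19.4% of all probe sets were called higher and 20.0% lower, and 15 rose and 1 fell in mock embryos, where 13.6% and 10.4% were. At 24 over 7 hpf 2 rose and 11 fell in anti-mir-34 embryos (16.5% and 19.4% over all probe sets), and 2 rose and 10 fell in mock embryos (19.5% and 23.5%). No gene of the list differed between the injections, with lowest adjusted p-values of 0.187 at 1 hpf, 0.433 at 7 hpf and 0.973 at 24 hpf.

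gata3, a zinc finger factor of ventral ectoderm, rose by 6.20 ± 0.68 in anti-mir-34 embryos and by 7.37 ± 0.68 in mock embryos at 7 over 1 hpf, and its relative gata2a by 6.55 ± 0.57 and 6.52 ± 0.57. ved, a ventral homeobox repressor, rose by 7.35 ± 0.80 in anti-mir-34 embryos and by 7.29 ± 0.80 in mock embryos, and then fell by 5.91 and 6.65 at 24 hpf. pou5f3, a maternal factor of zygotic genome activation, fell by 6.77 ± 0.32 in anti-mir-34 embryos and by 6.38 ± 0.32 in mock embryos at 24 over 7 hpf. The 2 genes that rose at 24 hpf were dlx5a, a homeobox factor, by 3.25 ± 0.74 in anti-mir-34 embryos and 4.63 ± 0.74 in mock embryos, and klf6a, a Kruppel-like factor, by 1.3 ± 0.26 and 1.19 ± 0.26. ehf, an ETS family factor, fell at 7 over 1 hpf by 3.41 ± 1.03 and 2.91 ± 1.03, at dim levels.

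tp63 encodes the factor that directs basal epidermis. It rose by 3.22 ± 0.76 at 7 over 1 hpf in anti-mir-34 embryos (adjusted p = 0.002) and differed by 1.26 ± 0.76 in mock embryos (adjusted p = 0.249). Its second probe set did not pass in either (0.60 in anti-mir-34 embryos and 0.27 in mock embryos).

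Junction and envelope genes, which hold an epithelial sheet together and seal it, were described from a list of 63, of which 43 were measured. At 7 over 1 hpf 24 rose and 3 fell in anti-mir-34 embryos (19.4% and 20.0% over all probe sets), and 19 rose and 1 fell in mock embryos (13.6% and 10.4%). At 24 over 7 hpf 7 rose and 12 fell in anti-mir-34 embryos (16.5% and 19.4% over all probe sets), and 11 rose and 13 fell in mock embryos (19.5% and 23.5%), so the rises in anti-mir-34 embryos are at the share over all probe sets. Between the injections jupa, which encodes the desmosome protein plakoglobin, was lower in anti-mir-34 embryos at 1 hpf by a log2 difference of -1.93 ± 0.44 (adjusted p = 0.0276), and no gene of the list passed at 7 or 24 hpf. The call of jupa was lost without the intensity trend (adjusted p = 0.128), with only the 1 hpf arrays in the fit (adjusted p = 0.389) and without 5 of the 6 arrays of 1 hpf in turn, all but anti-mir-34 replicate 2 (adjusted p = 0.0536 to 0.121).

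The early rises in this list include annexin, calpain and plakophilin genes. anxa1a rose by 7.55 ± 0.61 at 7 over 1 hpf in anti-mir-34 embryos and by 7.41 ± 0.61 in mock embryos, capn9 by 6.95 ± 0.66 and 6.88 ± 0.66, and pkp3a, of desmosomes, by 6.82 ± 0.71 and 6.42 ± 0.71. At 24 over 7 hpf s100a10b, whose product binds annexin A2, rose by 5.65 ± 0.64 in anti-mir-34 embryos and by 6.52 ± 0.64 in mock embryos. The tight junction genes cldni and cldnd went opposite ways in that step, cldni rising by 5.03 ± 0.84 in anti-mir-34 embryos and 6.21 ± 0.84 in mock embryos, and cldnd falling by 7.34 ± 1.12 and 6.69 ± 1.12. tjp3, a tight junction scaffold gene, fell by 1.25 ± 0.31 in mock embryos at 7 over 1 hpf, and in anti-mir-34 embryos it had -0.16 ± 0.31 (adjusted p = 0.723). anxa2a rose and anxa2b fell at 24 hpf in both injections, by 2.15 and 4.10 in anti-mir-34 embryos and by 4.14 and 3.62 in mock embryos.

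**Figure D5:**
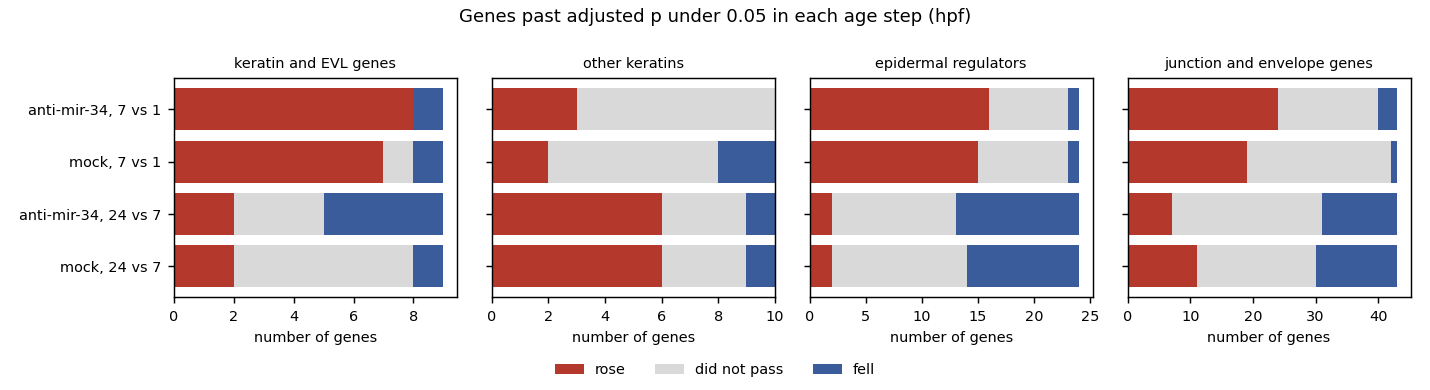
Number of genes (horizontal axis) that rose, did not pass or fell at adjusted p under 0.05 in 4 gene lists, for 7 against 1 hpf and 24 against 7 hpf in anti-mir-34 and mock LNA embryos. Among the 9 keratin and enveloping layer genes 8 rose at 7 hpf in anti-mir-34 embryos and 7 in mock embryos, and 6 of the 10 other keratins rose at 24 hpf in both.

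The genes with the most similar course over the 18 arrays were looked up among 8767 genes, as a description with no test, since the arrays fall into 3 ages and share their scaling. krt8 and krt97 were each other's most similar gene (Pearson r = 0.9873). lye was most like the keratin gene krt17 outside the list (r = 0.9894). krt4 was most like hnrnpa0a (r = 0.994), krt5 like apoc1 (r = 0.9885), krt18a.1 like wdr90 (r = 0.9932), and krt8 and krt97 outside the list like zmynd12 (r = 0.987 and 0.9869). icn was most like ndufb8 (r = 0.9853), icn2 like tmsb (r = 0.9886) and epcam like trmt9b (r = 0.9679). Within the list, epcam ran opposite to krt4, with r = -0.9043.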

How the data were processed

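The authors deposited log2 values of 15617 probe sets on 18 arrays; their range, down to -3.32, shows the log2 scale. Per the submitters' processing notes GCOS, the signal software of Affymetrix, was used. Summarisation and normalization are not stated in the sources used here. Sorted values are identical on the 2 arrays without missing values, so the distributions had been made equal, and a difference is relative to the other probe sets and says nothing of total RNA. Missing values (131, spread over 115 probe sets) stayed missing. Precision is limited by 3 arrays per group.

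Gene names are those of the platform annotation (10795 probe sets with 1 symbol, 135 with several, 4572 with none). Entrez numbers of 10711 probe sets were found in the RefSeq table of GRCz12tu, and 1 symbol was updated.

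Without the 115 control probe sets, limma 3.58.1 in R 4.3.3 was fitted to all arrays with 1 mean per group (12 residual and 8.06 prior degrees of freedom, eBayes with trend, no filter on dim probe sets). Two-sided tests were adjusted by Benjamini-Hochberg over 15502 probe sets in each comparison, with a threshold of 0.05. An exact permutation test of 3 against 3 arrays can reach 0.1 at the lowest. The fit was tested on simulated data. Alternatives were 16 added to the signals, the dimmer 50% left out, quantile normalization, no trend, a replicate block, the mean of a gene's probe sets, only the compared groups, and each array left out. Members and lists were chosen with earlier results of these data known. All 9 members are named; of other keratins all 10, of the regulator and junction lists the largest changes in mock embryos with tp63, and per member the most similar gene. The vim, desma, gfap and inab genes come from a marker list. jupa, and the 24 against 1 hpf comparisons, were added after values had been seen. Replicate numbers were not taken to pair samples.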

Additional observations from a re-analysis of the deposited data

How the results depend on the processing

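Of the 1035 values of single genes under an alternative, 975 kept direction and side of the threshold, 24 turned sign without being called in either setting, 20 gained a call and 16 lost one; no called value reversed. With 16 added to the signals the count of the 9 genes called at 24 against 7 hpf in mock embryos was 7 (3 higher, 4 lower) in place of 3 (2 higher, 1 lower), and at 1 hpf between the injections it was 0 in place of 1. Over all 15502 probe sets these counts were 6839 in place of 6662, and 217 in place of 191. That scaling also moved the share of higher ones among the called probe sets at 7 against 1 hpf in mock embryos to 46.0%, against 56.5%. With only the compared groups in the fit these counts of members were 5 and 0, and without the intensity trend the count at 1 hpf was 0. Over all probe sets 6250 and 0 were called with only the compared groups, and 52 at 1 hpf without the trend. With the dimmer 50% of probe sets left out, the count between the injections at 7 hpf was 1 in place of 0. Over all probe sets it was 6 of 7751, in place of 2 of 15502. Leaving out 1 array gave counts between 3 and 6 at 24 against 7 hpf in mock embryos, between 1 and 2 for the injection at 1 hpf and between 0 and 3 for it at 7 hpf. The counts over all probe sets moved as well, between 5552 and 6467, between 89 and 468 and between 0 and 403 in the same order. The replicate numbers of the labels were not shown to pair samples: same-numbered deviations correlated between 0.01 and 0.28 at the 3 ages. With the replicate number as a block the count was 5 at 24 against 7 hpf in mock embryos (krt4 and lye added) and 1 for the injection at 7 hpf (icn, adjusted p = 0.0459). Over all probe sets 6772 and 18 were called with the block. krt18a.1 at 24 against 7 hpf in anti-mir-34 embryos did not without the trend (adjusted p = 0.0596), and krt5 there passed with only the compared groups (adjusted p = 0.0462). The causes of these shifts were not tested. Low signals limit the differences that involve 1 hpf for the members other than epcam. The same holds for differences of icn and icn2 that involve 7 hpf, where their mock means were 3.49 and 2.28. The anti-mir-34 mean of icn2 was 3.52 at that age.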
